A study of Bos taurus with 10 samples.

Results

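SNARE proteins and membrane tethers, the machinery that captures transport vesicles and fuses them with their target membranes, were followed through the in vitro maturation of bovine oocytes. Members were the probe sets of the Affymetrix bovine array whose single annotated gene symbol named a syntaxin, a syntaxin-binding protein, another SNARE, the fusion ATPase NSF or one of its adaptors, a subunit of the COG, TRAPP or exocyst complex, or a protein named golgin A or USO1. There were 93 such probe sets of 24016 tested, for 64 genes.

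In vitro matured (IVM) oocytes had been cultured inside their cumulus complexes for 24 h at 39°C in a medium that held 10% serum and epidermal growth factor at 10 ng/ml. Immature oocytes were stripped of cumulus and frozen at 0 h. Both came from follicles of 3 to 8 mm on ovaries of slaughtered cows, were denuded until no cumulus was seen and were frozen as tubes of 10 oocytes. Each array measured a pool of oocytes, and one pool of each kind per day of ovary collection gave 5 IVM and 5 immature arrays, and each array started from 100 ng of RNA that was amplified through a pair of rounds.

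A SNARE is a membrane-anchored protein with a short helical motif. Helices of the classes Qa, Qb, Qc and R, divided between vesicle and target, wind into a bundle that pulls the membranes together, and NSF with its adaptors takes the spent bundle apart. Tethers act before fusion: COG holds vesicles that travel back through the Golgi, TRAPP acts between endoplasmic reticulum (ER) and Golgi and in autophagy, the exocyst acts at the plasma membrane, and golgins are coiled rods on Golgi membranes. In maturing oocytes the Golgi breaks into small pieces, and cortical granules gather under the plasma membrane, from which they are released by SNARE-driven fusion at fertilisation.

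Levels are FARMS values, which are on a log2 scale and are set for each probe set separately, so they are compared here between arrays. Where probe sets of a gene are told apart by which has the higher values, that says nothing of amounts of RNA. Lower, higher, fell and rose refer to array signal. The arrays used a 3'-amplification kit. For its later PCR the paper chose random primers, so that poly-A tail length would not favour some transcripts. Whether tail length has a part in the array values was not tested. The median of all probe sets lay between 7.04 and 7.10 on every array, and 5 arrays a group limit the precision. The number of oocytes was set by the design. For other cells carried over into a pool, fewer cells and less RNA per cell cannot be told apart. Poly-A control transcripts, which are added to the RNA before amplification, were at 7.73 to 8.23 on IVM arrays and 6.85 to 7.24 on immature arrays, a difference of 0.94 (p = 0.00794 by a two-sided exact permutation test, the lowest value that 5 arrays a group can give). Hybridization controls were at 10.75 to 11.22 on IVM arrays and 9.38 to 10.85 on immature arrays, a difference of 0.90 (p = 0.0556 by the same exact test). Immature replicates 1, 2 and 3 were the lowest. What this shift means for centring on the poly-A controls was not tested. The 7 oocyte marker genes found of 12 listed all varied, and their mean level was 10.18 to 11.60 on IVM arrays and 12.87 to 13.41 on immature arrays. *NLRP5* and *ZP3* fell while the others did not pass. Of those, *GDF9*, *ZP4* and *ZP2* differed by -4.42, -3.15 and -0.66, and *KPNA7* and *BMP15* by 0.37 and 0.19, so the markers did not share a direction. Of 15 cumulus and granulosa cell markers 13 varied, with a mean of 8.23 to 9.86 on IVM arrays and 7.18 to 8.63 on immature arrays. Of the 16 varying probe sets of these markers 9 were lower and 7 higher in sign, with a median difference of -0.33 and 1 that passed. That one was *TNFAIP6*, a matrix gene of expanding cumulus, which was higher in IVM oocytes by 10.86 on one probe set and differed by 2.71 on another, which did not pass. *PTX3*, another cumulus matrix gene, differed by 6.38 (adjusted p = 4.80e-04, not passed), and *FST*, *CYP19A1*, *STAR* and *INHA*, of granulosa cells, by -1.79, -1.38, -1.19 and -0.91, none of which passed. Of 11 markers of other somatic cells 4 varied, with a mean of 7.51 to 9.66 on IVM arrays and 6.62 to 8.55 on immature arrays. That mean joins *LUM*, *DCN* and *COL3A1*, which differed by 4.37, 1.79 and 0.01, with *VIM*, at -2.51, and none of them passed. What part these shifts have in the values of the fusion machinery was not tested.

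*GOSR1*, a Golgi SNARE, was 13.1-fold lower in IVM oocytes, and *USE1*, *STXBP3*, *COG2* and *VTI1B* each had a probe set that was more than 7-fold lower. Higher in IVM oocytes past the same test were *EXOC8*, an exocyst subunit, and *TRAPPC6B*, a TRAPP subunit. A probe set passed where limma, fitted over all 24016 probe sets, gave a Benjamini-Hochberg adjusted p under 0.0001. By this rule 17 member probe sets, of 15 genes, were lower in IVM oocytes, which is 18.3% of the 93, and 4.81% of all probe sets tested were lower. From these same arrays the paper had already named *STX5*, *STX17*, *SEC22A* and *SEC22B*, which are among the 15, as higher in immature oocytes. The 2 that were higher are 2.15% of the members, against 0.974% of all probe sets. Lower probe sets were thus 89.5% of the members that passed, beside 83.2% of all 1389 probe sets that passed. Differences of the lower ones ran from -3.71 to -0.86 with adjusted p-values from 1.26e-07 to 7.57e-05.

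The summary method returns nearly a single value on every array for many probe sets, and those whose 10 values spanned less than 0.01 were taken as hardly varying. Of the members 56 varied, or 60.2%, against 39.4% of all probe sets tested. The other 37 gave no measure of the comparison, whatever their level. For 15 genes no probe set varied: *COG1*, *EXOC3L1*, *NAPB*, *NAPG*, *NSF*, *SNAP23*, *STX10*, *STX19*, *STXBP2*, *STXBP5*, *TRAPPC2L*, *TRAPPC9*, *VAMP2*, *VAMP5* and *VTI1A*. The probe set of *TRAPPC9*, at a span of 0.00920, lay just under this limit and that of *NAPA*, at 0.0270, was the nearest above it. The remaining 19 probe sets that hardly varied belonged to genes with another, varying one, and were read for *COG2*, *COG4*, *COG6*, *STX6*, *STX12*, *USE1*, *SNAP25*, *SEC22A*, *SEC22B*, *SEC22C*, *VAMP8*, *TRAPPC6B*, *EXOC1*, *EXOC2*, *EXOC6* and *GOLGA4*.

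Among the 56 members that varied, the median difference was -0.59 and 36 were negative, whereas the median over all 9460 varying probe sets was 0.18 and 42.5% were negative. All 5 IVM arrays lay below all 5 immature arrays for 26 members, which is 46.4% of those that varied, and for 29.3% of all varying probe sets. All 5 lay above for 8 members, or 14.3%, against 27.0% of all varying probe sets. The groups overlapped for the remaining 22. At a looser adjusted p under 0.05, 31 of the 93 members were lower (33.3%) and 12 higher (12.9%), against 15.0% and 15.5% of all probe sets tested. Of these, 4 of the lower and 1 of the higher members hardly varied.

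Counted among the varying probe sets of this fit, 30.4% of members were lower and 3.57% higher, against 12.1% and 2.38% of all. Fitting the varying probe sets alone gave 21 lower and 2 higher members, or 37.5% and 3.57%, against 17.8% and 7.24% of all varying probe sets. With the replicate number, taken as the day of collection, as a block over all probe sets, limma called 0 members lower and 0 higher (35 and 12 where p under 0.05 was left unadjusted). Of all 24016 probe sets 4074 were lower and 4731 higher in that fit where p was left unadjusted. That fit called 0 of all 24016 probe sets in either direction, and the adjusted p-values of the 17 lower ones then ran from 5.54e-04 to 0.00451. With the same block over the 9460 varying probe sets, 13 were lower and 1 higher, against 9.83% and 1.82% of all varying probe sets. Without immature replicates 1, 2 and 3, the arrays with low hybridization controls, 0 were lower and 0 higher (by limma, with 27 and 9 where p under 0.05 was left unadjusted), beside 4 lower (0.0167%) and 0 higher of all 24016, while the differences of the 17 lay between -3.66 and -0.85. Where p was left unadjusted, 3307 of the 24016 were lower and 3066 higher. Without those arrays and with varying probe sets alone, 5 members were lower (8.93%) and 1 higher (1.79%), against 3.97% and 0.0423% of all varying probe sets. With each array centred on its poly-A controls, which moves the median of all probe sets by -0.936, 72 members were lower, or 77.4%, and 0 higher (by limma, with 82 and 2 where p under 0.05 was left unadjusted). All probe sets gave nearly the same share of lower ones, 77.7%, and 0.687% of higher ones. Left unadjusted, 20470 of the 24016 were lower and 834 higher.

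**Figure D1:**
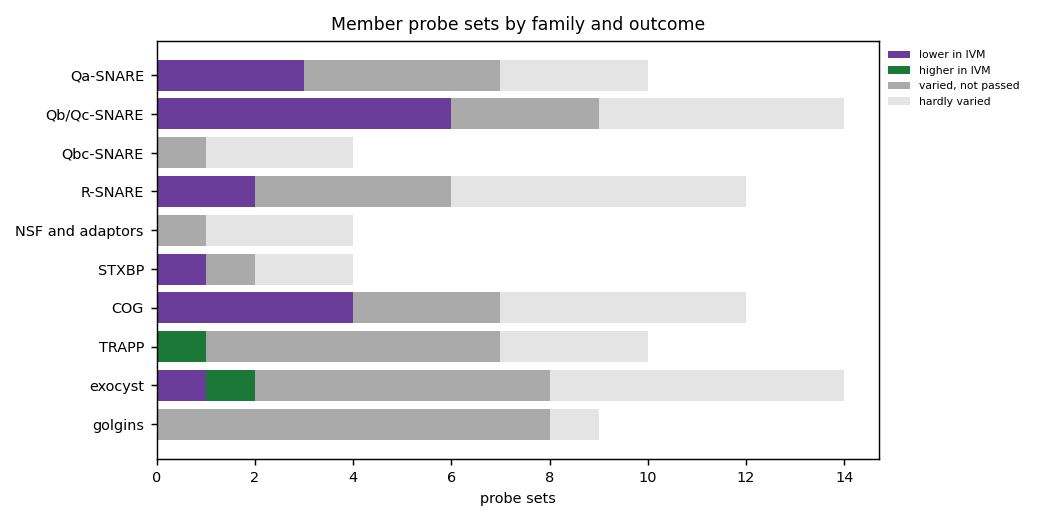
Number of member probe sets (horizontal axis) in each family, split into those lower in IVM oocytes, those higher, those that varied and did not pass, and those that hardly varied. Of 14 probe sets of Qb and Qc SNAREs 6 were lower, as were 4 of 12 of COG, and 0 of 9 golgin probe sets passed in either direction. Of all probe sets tested 4.81% were lower and 0.974% higher, and differences between families were not tested.

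**Figure D2:**
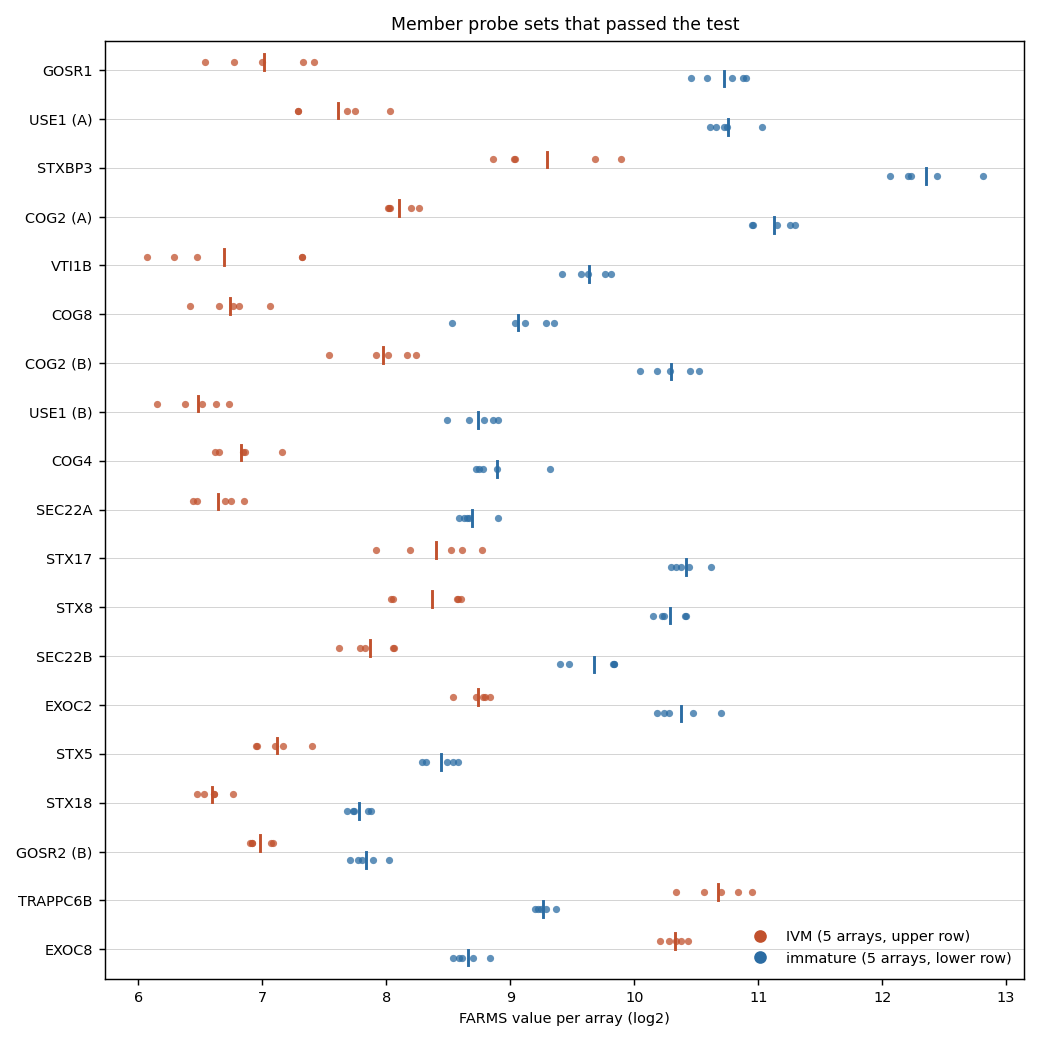
FARMS value (log2, horizontal axis) of the 19 member probe sets that passed, with each point 1 array and the vertical bar the group mean. IVM arrays are the upper row and immature arrays the lower row of each pair, and the groups do not overlap for any of the 19.

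SNAREs themselves, with the *SEC22B* relatives *SEC22A* and *SEC22C* counted among them, accounted for 11 of the 17 lower probe sets. Of 40 SNARE probe sets, for 27 genes, 23 varied, 11 were lower in IVM oocytes (27.5%) and 0 were higher (by limma, with 18 and 3 where p under 0.05 was left unadjusted). The same unadjusted limit gave 4332 lower and 5028 higher of all 24016 probe sets. Among the 18 are probe sets of *SEC22A*, *SEC22C* and *VAMP2* that hardly varied. Among the 45 probe sets of COG, TRAPP, the exocyst and the golgins, 5 were lower (11.1%) and 2 higher (4.44%). Whether these shares differ was not tested. The median difference of the varying SNARE probe sets was -1.08, and that of the varying tether probe sets was -0.21.

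The SNAREs of transport between ER and Golgi include both directions of traffic. *STX5* is the Qa-SNARE of the forward route and of traffic inside the Golgi. Its values, in the order of replicates 1 to 5 as throughout, were 7.10, 6.95, 6.96, 7.40 and 7.17 in IVM pools, against 8.49, 8.54, 8.32, 8.29 and 8.58 in immature pools. The highest IVM pool thus lay well below the lowest immature pool, and the *STX5* signal fell by 1.33 log2 units (standard error, SE, 0.10, adjusted p = 2.49e-05). *GOSR1*, a Qb-SNARE that pairs with *STX5* within the Golgi, was at 7.33, 6.77, 7.00, 6.54 and 7.42 in IVM pools and at 10.90, 10.79, 10.59, 10.46 and 10.88 in immature pools. It had the largest difference of the members, at -3.71 (SE 0.19, adjusted p = 2.40e-06). The gap between the lowest immature and the highest IVM pool was larger than the range inside either group.

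*GOSR2*, the Qb-SNARE of ER-to-Golgi vesicles, had a pair of varying probe sets that went opposite ways. On the one with the lower mean the IVM pools were at 7.09, 7.07, 6.92, 6.92 and 6.90 and the immature pools at 7.80, 8.02, 7.71, 7.77 and 7.89, and this signal fell by 0.86 (SE 0.07, adjusted p = 3.18e-05). On the other the IVM pools were at 9.95, 10.17, 9.95, 9.52 and 10.20 and the immature pools at 9.06, 9.16, 9.03, 8.83 and 9.15. That difference of 0.91 (SE 0.13, adjusted p = 0.00115) did not pass and was -0.02 after centring on the poly-A controls. Neither probe set overlapped between the groups, so the direction for *GOSR2* depends on the probe set read. *BET1L*, the Qc-SNARE that joins *STX5* and *GOSR1*, was spread widely, at 7.93, 8.75, 7.98, 9.33 and 7.71 in IVM pools and 7.18, 7.02, 7.81, 8.20 and 7.59 in immature pools. The groups overlapped, with replicate 4 the highest of each, and the difference of 0.78 did not pass (adjusted p = 0.159; -0.15 after poly-A centring).

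On the return route from Golgi to ER, every varying SNARE probe set among the members was lower. *STX18*, the Qa-SNARE of this step, was at 6.47, 6.53, 6.61, 6.76 and 6.61 in IVM pools, against 7.68, 7.88, 7.73, 7.74 and 7.85 in immature pools. Both groups were tight, and the *STX18* signal fell by 1.18 (SE 0.06, adjusted p = 3.06e-06). *USE1*, a SNARE that acts with *STX18*, was read by a pair of varying probe sets that both fell. The one with higher values was at 7.29, 7.68, 7.75, 8.03 and 7.29 in IVM pools and 10.75, 10.66, 11.03, 10.61 and 10.72 in immature pools, a difference of -3.14 (SE 0.16, adjusted p = 2.53e-06). The other, at 6.15, 6.51, 6.38, 6.63 and 6.73 in IVM pools and 8.79, 8.90, 8.67, 8.49 and 8.86 in immature pools, fell by 2.26 (SE 0.13, adjusted p = 4.20e-06). A further probe set of *USE1* hardly varied.

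*SEC22B* is the R-SNARE that serves both directions between ER and Golgi. IVM pools gave 8.06, 7.83, 7.62, 8.05 and 7.79, against 9.83, 9.84, 9.40, 9.47 and 9.84 in immature pools, so that *SEC22B* fell by 1.81 (SE 0.13, adjusted p = 1.66e-05). Immature replicates 3 and 4 were the low ones of their group and still lay above every IVM pool. *SEC22A*, an ER-resident relative, was at 6.85, 6.75, 6.44, 6.47 and 6.70 in IVM pools and 8.67, 8.90, 8.59, 8.65 and 8.63 in immature pools, and fell by 2.05 (SE 0.10, adjusted p = 1.71e-06). *SEC22C*, another relative, had a mean of 7.31 ± 0.42 in IVM oocytes and 8.84 ± 0.18 in immature oocytes (SD, n = 5 each). The groups did not overlap, yet the difference of -1.53 missed the threshold (SE 0.20, adjusted p = 6.51e-04), and it passed when varying probe sets alone were fitted (adjusted p = 6.20e-05). Each of the *SEC22* genes also had a probe set that hardly varied.

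**Figure D3:**
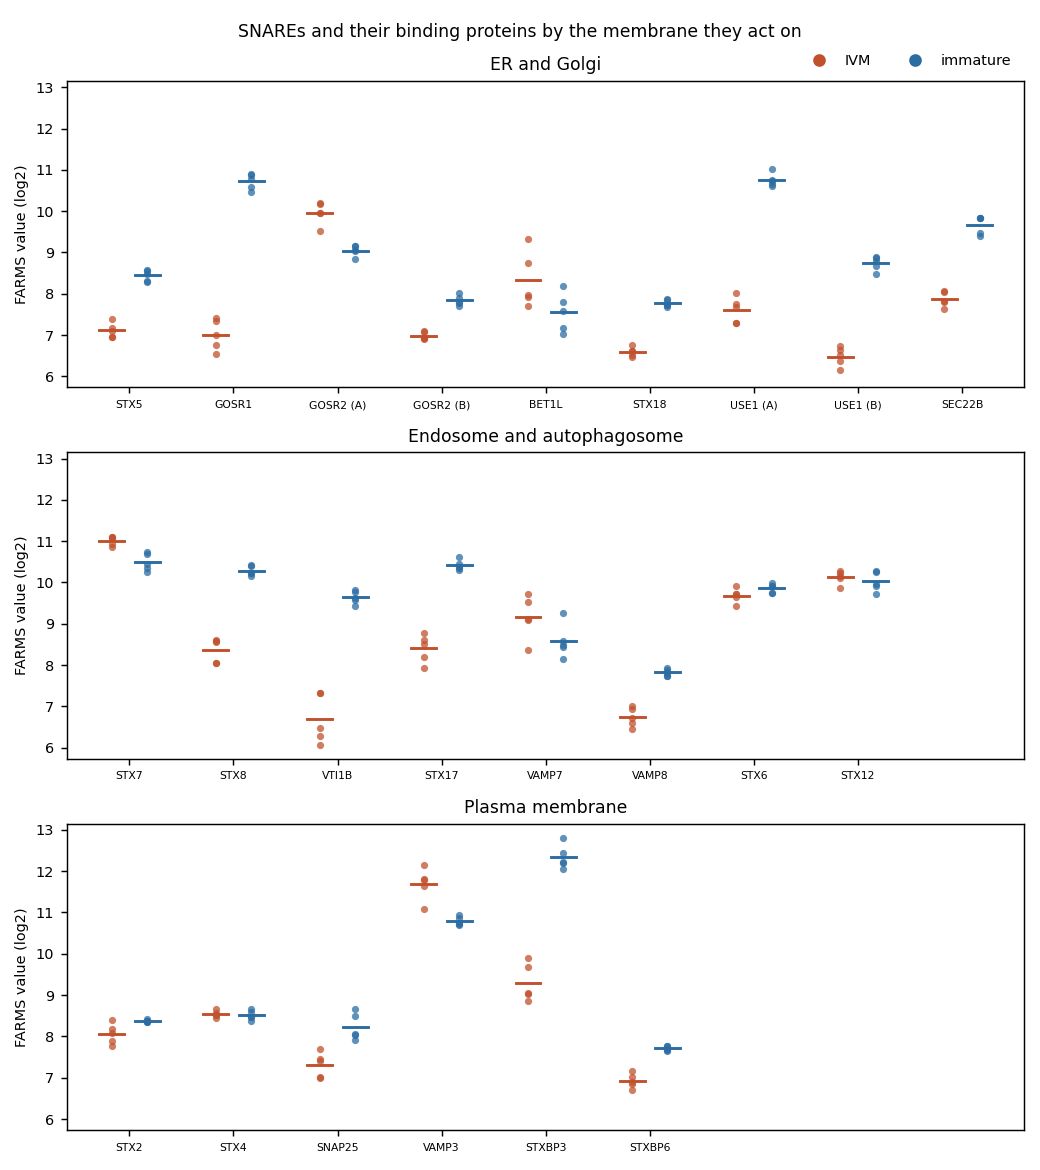
FARMS value (log2, vertical axis) on each IVM and immature array for varying SNARE and syntaxin-binding probe sets, grouped by the membrane they act on, with bars at the group means and (A) the probe set of a gene with higher and (B) that with lower values. In the ER and Golgi panel IVM arrays lie below immature arrays for every probe set apart from *BET1L* and *GOSR2* (A), whose differences of 0.78 and 0.91 turn to -0.15 and -0.02 after centring on the poly-A controls.

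In the late endosome, 2 of the Q-SNAREs that assemble together fell, and the Qa-SNARE of the same bundle did not. *VTI1B*, the Qb-SNARE, was at 6.29, 7.32, 6.47, 7.32 and 6.07 in IVM pools, against 9.63, 9.81, 9.42, 9.57 and 9.76 in immature pools. IVM replicates 2 and 4 stood about a log2 unit above the other IVM pools and the groups stayed far apart, with a difference of -2.95 (SE 0.27, adjusted p = 7.57e-05, the highest of the 17). *STX8*, the Qc-SNARE, was at 8.04, 8.60, 8.57, 8.58 and 8.05 in IVM pools and 10.22, 10.15, 10.24, 10.42 and 10.41 in immature pools, and fell by 1.92 (SE 0.14, adjusted p = 2.11e-05). *STX7*, the Qa-SNARE that binds both, had values of 11.10, 10.85, 10.94, 11.10 and 11.08 in IVM pools and 10.44, 10.73, 10.70, 10.26 and 10.35 in immature pools. Here the IVM pools lay above, without overlap, but the difference of 0.52 did not pass (SE 0.11, adjusted p = 0.00607), and it was -0.42 after poly-A centring.

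The R-SNAREs of this compartment did not pass, and the autophagosomal SNARE fell. *VAMP8*, which completes the late endosomal bundle and also pairs with *STX17*, was at 6.72, 6.59, 6.94, 7.00 and 6.46 in IVM pools and 7.89, 7.94, 7.74, 7.81 and 7.73 in immature pools. With a difference of -1.08 (SE 0.11) it lay nearest outside the threshold, at an adjusted p of 1.35e-04, and passed when varying probe sets alone were fitted (1.80e-05). *VAMP7*, an R-SNARE of lysosomes, overlapped between the groups, at 9.16 ± 0.52 in IVM oocytes and 8.58 ± 0.41 in immature oocytes (SD, n = 5 each; difference 0.58, and -0.35 after poly-A centring). *STX17*, the Qa-SNARE by which autophagosomes fuse with lysosomes, was at 8.77, 8.52, 7.92, 8.19 and 8.61 in IVM pools and 10.62, 10.30, 10.38, 10.34 and 10.44 in immature pools. No pools overlapped and *STX17* fell by 2.01 (SE 0.16, adjusted p = 3.52e-05).

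SNAREs of the trans-Golgi network and early endosome showed little difference. *STX6*, a Qc-SNARE there, averaged 9.68 ± 0.18 in IVM oocytes and 9.86 ± 0.11 in immature oocytes (SD, n = 5 each). Its difference of -0.18 had a 95% interval from -0.39 to 0.03. *STX12*, a Qa-SNARE of recycling endosomes, averaged 10.12 ± 0.16 in IVM oocytes and 10.03 ± 0.24 in immature oocytes (SD, n = 5 each). The difference was 0.09, with an interval from -0.21 to 0.39 (-0.84 after poly-A centring). These intervals exclude changes as large as those of *STX8* or *VTI1B* on the deposited scale.

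Plasma membrane SNAREs gave no call. *STX4*, a Qa-SNARE of exocytosis, was at 8.52, 8.57, 8.52, 8.45 and 8.67 in IVM pools and 8.46, 8.47, 8.38, 8.58 and 8.66 in immature pools. These are the closest groups of any syntaxin that varied, with a difference of 0.04 (95% interval -0.10 to 0.18) that became -0.90 after poly-A centring and -0.07 without immature replicates 1, 2 and 3. *STX2*, a second plasma membrane syntaxin, averaged 8.07 ± 0.25 in IVM oocytes and 8.38 ± 0.02 in immature oocytes (SD, n = 5 each, adjusted p = 0.0736). *SNAP25*, which contributes both a Qb and a Qc helix to exocytosis, was at 7.01, 7.70, 6.99, 7.46 and 7.41 in IVM pools and 7.92, 8.67, 8.04, 8.05 and 8.49 in immature pools. The groups did not overlap, and the difference of -0.92 missed the threshold (SE 0.20, adjusted p = 0.00852).

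*VAMP3*, the R-SNARE that carries recycling vesicles to the plasma membrane, was at 11.81, 11.64, 11.78, 11.09 and 12.14 in IVM pools, against 10.93, 10.71, 10.86, 10.70 and 10.74 in immature pools. IVM replicate 4 was the low one of its group and still lay above every immature pool. The difference of 0.91 did not pass (SE 0.18, adjusted p = 0.00491) and was -0.03 after poly-A centring. The ubiquitous partner *SNAP23* and the R-SNAREs *VAMP2* and *VAMP5* hardly varied.

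The disassembly machinery gave almost no varying values. *NAPA*, the adaptor that recruits NSF to spent SNARE bundles, stood at 8.28 ± 0.01 in IVM oocytes and 8.28 ± 0.01 in immature oocytes (SD, n = 5 each, adjusted p = 0.523). *NSF* itself and the adaptors *NAPB* and *NAPG* hardly varied. No probe set of these 4 genes passed (by limma, with 0 lower and 1 higher where p under 0.05 was left unadjusted). That 1 was of *NAPB*, whose values spanned 1.20e-08 over all arrays, so its sign is no measure of the comparison.

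Syntaxin-binding proteins guide SNAREs into bundles or hold them apart. *STXBP3*, also known as Munc18c, is the partner of *STX4* in exocytosis. It was at 8.86, 9.68, 9.03, 9.89 and 9.04 in IVM pools, against 12.21, 12.81, 12.23, 12.06 and 12.44 in immature pools. IVM replicates 2 and 4 were the high ones, the groups were separate by more than their spread, and *STXBP3* fell by 3.05, or 8.30-fold (SE 0.24, adjusted p = 3.13e-05). *STXBP6*, or amisyn, which can occupy the R position of a SNARE bundle, averaged 6.93 ± 0.17 in IVM oocytes and 7.71 ± 0.06 in immature oocytes (SD, n = 5 each). Its pools did not overlap and the difference of -0.78 did not pass (SE 0.08, adjusted p = 1.67e-04, and 4.33e-05 among varying probe sets alone).

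COG is an assembly of 8 kinds of subunit, of which 6 had a member probe set. Probe sets of *COG2*, *COG4* and *COG8* fell, while *COG3* and *COG6* did not pass. *COG2* was read by a pair of probe sets. The one with higher values was at 8.03, 8.26, 8.02, 8.20 and 8.01 in IVM pools and 11.30, 10.96, 11.26, 11.15 and 10.95 in immature pools, and with a difference of -3.02 (SE 0.09) it had the smallest adjusted p of the members, 1.26e-07. The other was at 7.92, 8.24, 7.54, 8.01 and 8.17 in IVM pools and 10.45, 10.52, 10.18, 10.05 and 10.29 in immature pools, and fell by 2.32 (SE 0.15, adjusted p = 9.07e-06). Both readings put every IVM pool more than a log2 unit below every immature pool.

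*COG4* was at 6.86, 6.62, 6.65, 7.16 and 6.84 in IVM pools and 8.78, 9.32, 8.75, 8.72 and 8.89 in immature pools, with immature replicate 2 the high one. It fell by 2.07 (SE 0.15, adjusted p = 1.62e-05). *COG8* was at 6.76, 6.65, 6.42, 7.06 and 6.81 in IVM pools and 9.29, 9.04, 8.53, 9.12 and 9.35 in immature pools, and fell by 2.32 (SE 0.18, adjusted p = 2.61e-05). *COG2* and *COG4* belong to one lobe of the complex and *COG8* to the other, so the falls touched both lobes.

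*COG3*, in the lobe of *COG2* and *COG4*, was at 9.14, 8.93, 8.78, 8.99 and 8.96 in IVM pools, against 8.25, 8.67, 8.40, 8.20 and 8.42 in immature pools. All IVM pools were higher, and the difference of 0.57 did not pass (SE 0.10, adjusted p = 0.00291; -0.36 after poly-A centring). *COG6*, in the lobe of *COG8*, was the most scattered subunit. Its probe set with higher values was at 10.32, 9.51, 9.39, 9.11 and 9.76 in IVM pools and 9.49, 10.72, 10.50, 8.83 and 9.16 in immature pools, a difference of -0.12 whose 95% interval ran from -1.09 to 0.85, and without immature replicates 1, 2 and 3 it was 0.62. Its other varying probe set averaged 9.46 ± 0.61 in IVM oocytes and 8.38 ± 0.38 in immature oocytes (SD, n = 5 each; difference 1.08, adjusted p = 0.0329).

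**Figure D4:**
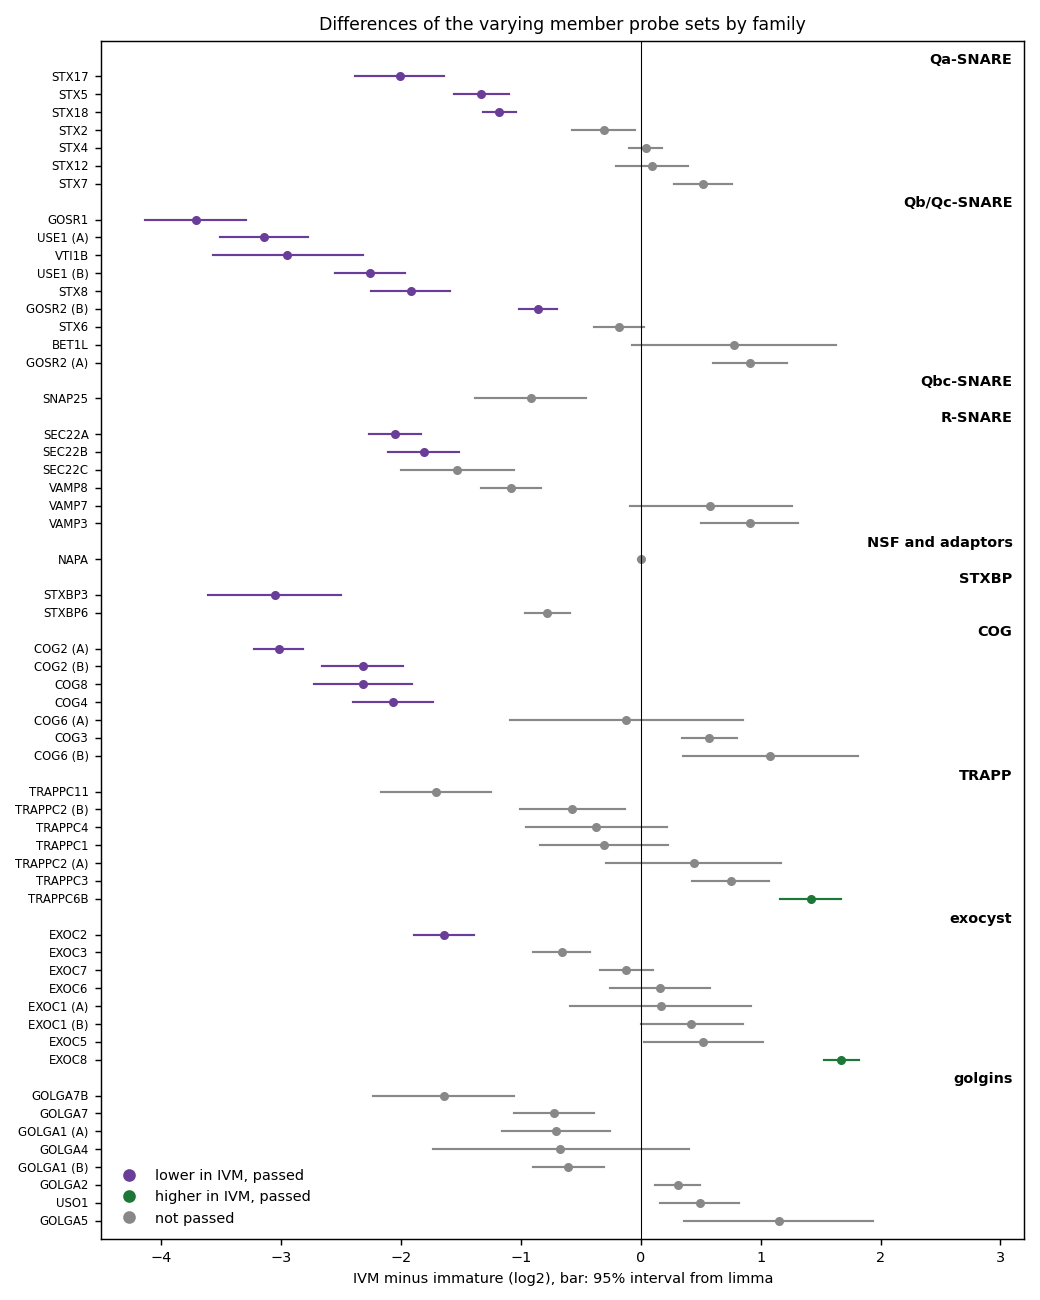
IVM minus immature difference (log2, horizontal axis) of the 56 varying member probe sets by family, with 95% intervals from limma as bars and colour for the direction of those that passed. The Qb and Qc SNAREs and COG reach from below -3 to about 1, while the exocyst and golgin estimates lie between -1.64 and 1.67. Centring arrays on the poly-A controls subtracts about 0.94 from every estimate, so that of the 20 above 0 those of *EXOC8*, *TRAPPC6B*, *GOLGA5* and *COG6* (B), which are larger than that, stay above 0.

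TRAPP subunits held 1 of the 2 rises and no fall that passed (by limma, with 3 lower and 2 higher where p under 0.05 was left unadjusted). These are counts of 10 probe sets, beside 4332 lower and 5028 higher of all 24016. Among the 3 lower is the probe set of *TRAPPC9*, which hardly varied. *TRAPPC6B*, a small subunit of the core that activates Rab GTPases, was at 10.95, 10.70, 10.56, 10.34 and 10.84 in IVM pools, against 9.29, 9.37, 9.22, 9.25 and 9.20 in immature pools. The immature pools were tight and all IVM pools lay above them, and *TRAPPC6B* rose by 1.42, or 2.67-fold (SE 0.11, adjusted p = 3.11e-05). With 1 array left out this call was lost in 8 of 10 fits, although the difference stayed between 1.35 and 1.50. It was also lost after poly-A centring, where 0 members passed as higher. A second probe set of the gene hardly varied.

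*TRAPPC3*, the core subunit known as Bet3, was at 10.01, 9.95, 9.63, 9.88 and 10.21 in IVM pools and 9.03, 9.22, 9.10, 9.02 and 9.57 in immature pools, without overlap (difference 0.75, SE 0.14, adjusted p = 0.00363; -0.19 after poly-A centring). *TRAPPC11*, a subunit particular to the form of TRAPP that acts in autophagy, was at 8.01, 8.24, 7.78, 8.63 and 7.78 in IVM pools and 9.77, 10.18, 9.65, 9.47 and 9.92 in immature pools. The difference of -1.71 was the largest among members that missed the threshold (SE 0.20, adjusted p = 3.06e-04), and it passed among varying probe sets alone (2.47e-05). *TRAPPC1* and *TRAPPC4*, both core subunits, overlapped between the groups, with differences of -0.31 and -0.37. *TRAPPC2*, the subunit whose human gene is mutated in a skeletal dysplasia, had differences of 0.44 and -0.57 on its varying probe sets, neither of which passed.

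The exocyst held a fall and a rise. *EXOC2*, or Sec5, which binds the GTPase RalA, was at 8.80, 8.84, 8.54, 8.78 and 8.72 in IVM pools, against 10.24, 10.70, 10.28, 10.47 and 10.18 in immature pools, and fell by 1.64 (SE 0.11, adjusted p = 1.03e-05). *EXOC8*, or Exo84, the other RalA-binding subunit, was at 10.21, 10.38, 10.28, 10.43 and 10.34 in IVM pools, against 8.70, 8.61, 8.84, 8.59 and 8.54 in immature pools. Both groups of *EXOC8* were tight and far apart, and it rose by 1.67, or 3.19-fold (SE 0.06, adjusted p = 5.58e-07). Both calls held with any 1 array left out, and their adjusted p-values with the replicate block among varying probe sets were 3.78e-05 for *EXOC2* and 3.53e-05 for *EXOC8*. After poly-A centring 0 members passed as higher, so *EXOC8* lost its call there, with a difference still above 0.

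The other exocyst subunits did not pass. *EXOC3*, or Sec6, was at 6.44, 6.34, 6.36, 6.41 and 6.39 in IVM pools and 7.13, 7.30, 6.78, 6.83 and 7.19 in immature pools, without overlap (difference -0.66, SE 0.10, adjusted p = 0.00160). *EXOC5*, or Sec10, was at 11.51, 10.94, 10.93, 10.55 and 11.21 in IVM pools and 10.39, 11.03, 10.44, 10.15 and 10.51 in immature pools, and immature replicate 2 lay among the IVM pools (difference 0.52, adjusted p = 0.107; -0.41 after poly-A centring). *EXOC6* and *EXOC7*, known as Sec15 and Exo70, had differences of 0.16 and -0.12 and overlapping groups. *EXOC1*, or Sec3, gave 0.17 and 0.42 on a pair of varying probe sets, for which IVM replicate 4 was the highest array, at 8.93 and 8.13. Without this array the first of them was -0.10.

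Golgins gave no call in either direction, and 8 of their 9 probe sets varied (by limma, with 4 lower and 3 higher where p under 0.05 was left unadjusted). Of all 24016 probe sets 4.81% passed as lower and 0.974% as higher. Left unadjusted, 4332 of them were lower and 5028 higher. *GOLGA7* and *GOLGA7B*, which share the name and are partners of palmitoyltransferases and not coiled rods, had negative differences. *GOLGA7* was at 11.98, 11.66, 11.36, 11.55 and 11.87 in IVM pools and 12.36, 12.77, 12.38, 12.31 and 12.21 in immature pools (difference -0.72, SE 0.14, adjusted p = 0.00569). *GOLGA7B* was at 9.90, 10.31, 9.68, 8.85 and 10.10 in IVM pools and 11.37, 11.48, 11.26, 11.52 and 11.42 in immature pools (difference -1.64, SE 0.25, adjusted p = 0.00151). In both, the groups were apart, and IVM replicate 4 was the lowest value for *GOLGA7B*.

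Of the coiled golgins, *USO1*, or p115, which tethers vesicles to the Golgi through *GOLGA2*, was at 11.22, 11.50, 10.90, 11.27 and 10.95 in IVM pools and 10.76, 10.93, 10.42, 10.50 and 10.76 in immature pools (difference 0.49, adjusted p = 0.0325; -0.45 after poly-A centring). *GOLGA2*, or GM130, a cis-Golgi matrix protein, averaged 8.77 ± 0.15 in IVM oocytes and 8.46 ± 0.10 in immature oocytes (SD, n = 5 each; difference 0.31, and -0.63 after poly-A centring). *GOLGA5*, or golgin-84, averaged 7.91 ± 0.67 in IVM oocytes and 6.76 ± 0.39 in immature oocytes (SD, n = 5 each; difference 1.15, adjusted p = 0.0353). All of these groups overlapped. *GOLGA1*, or golgin-97, a protein of the trans-Golgi, was -0.71 and -0.61 on a pair of probe sets, and neither passed (adjusted p = 0.0245 and 0.00748).

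*GOLGA4*, or golgin-245, another trans-Golgi golgin, showed how far 1 array could act. It was at 7.65, 8.02, 7.23, 9.64 and 7.07 in IVM pools, against 8.71, 8.65, 8.34, 8.62 and 8.62 in immature pools. IVM replicate 4 lay above every immature pool and the other IVM pools lay below. The difference of -0.67 had an adjusted p of 0.357, and of 0.00458 without that array.

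A pair of varying probe sets was available for 7 member genes, and the IVM minus immature difference was compared between the 2 probe sets within the same arrays. *GOSR2* differed most, by 1.77 (SE 0.14, adjusted p = 6.07e-07 from limma over 1134 such pairs, and 1.49e-05 with the replicate block). It was the single gene of the 7 past an adjusted p of 0.0001, a limit that 29.4% of all pairs passed. *TRAPPC2* differed by 1.01 (adjusted p = 4.37e-04) and *COG6* by -1.21 (adjusted p = 0.00153), both with opposite signs on their probe sets, as in 25.8% of all pairs. *USE1* and *COG2* fell on both probe sets by amounts that differed by -0.88 and -0.70 (adjusted p = 0.00116 and 0.00279). For *EXOC1* and *GOLGA1* the readings differed by -0.26 and -0.11 (adjusted p = 0.190 and 0.580). An adjusted p under 0.05 was reached by 66.4% of all pairs, so unequal readings of a gene are common on these arrays.

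**Figure D5:**
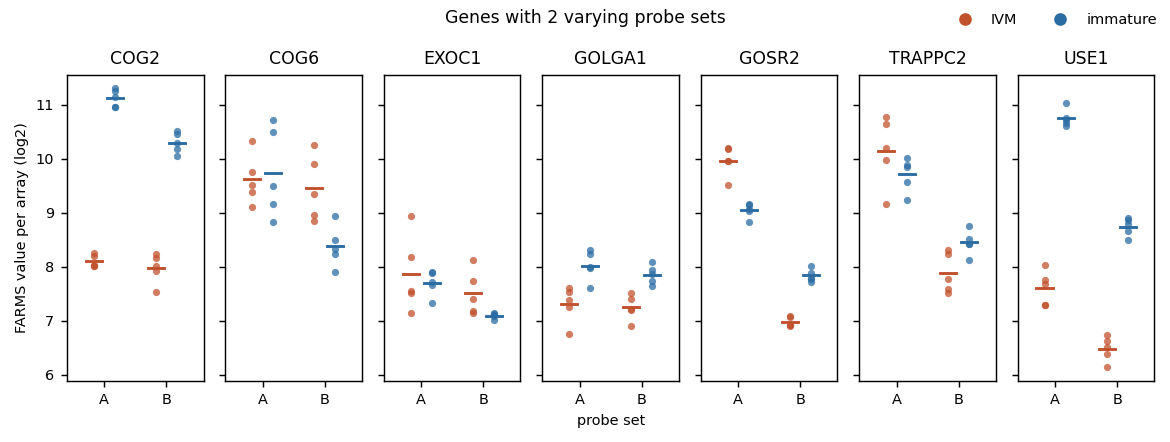
FARMS value (log2, vertical axis) on each IVM and immature array for the 7 member genes with 2 varying probe sets, A the one with higher and B the one with lower values, with bars at the group means. *COG2* and *USE1* are lower in IVM oocytes on both, whereas *GOSR2* lies 0.91 higher on A, which turns to -0.02 after centring on the poly-A controls, and 0.86 lower on B.

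Variation between pools was larger after maturation. The median SD of the varying members was 0.26 among IVM pools and 0.18 among immature pools, and the SD was the larger one in IVM pools for 39 of 56. Over all varying probe sets the median SD was 0.311 among IVM pools and 0.187 among immature pools. IVM replicate 4 was the pool farthest from its group's median for 23 of the 56 members, and immature replicate 2 for 22. These pools were also extreme for some granulosa and other somatic markers. *FST*, *INHBA* and *VIM* were at 7.65, 7.27 and 9.01 in immature replicate 2, the lowest of its group. In IVM replicate 4 they were at 11.40, 12.83 and 11.49, the highest of its group. *STAR* and some others did not do so, and *STAR* was at 12.80 and 10.55, the highest and the lowest. What part carried-over cells have in the member values was not tested. Among the 17 lower probe sets, immature replicate 2 was the highest immature pool for 10. Without IVM replicate 4, and with varying probe sets alone, 22 members were lower (39.3%) and 4 higher (7.14%), against 19.2% and 11.3% of all varying probe sets.

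Leaving out 1 array at a time gave 8 to 15 lower and 1 to 2 higher members. Over all 24016 probe sets the lower count fell as well, from 1155 to between 703 (without immature replicate 5) and 1097 (without IVM replicate 4). The higher count over all was 77 to 318 in these fits, against 234. The count of lower members was 8 without immature replicate 1 or 5, 9 without IVM replicate 5, 10 without IVM replicate 2, and 11 without IVM replicate 1 or immature replicate 2 or 4. The 9 probe sets whose call held in all 10 of these fits were both of *COG2*, both of *USE1*, and those of *STX18*, *GOSR1*, *SEC22A*, *EXOC2* and *EXOC8*. *VTI1B* and *STXBP3* lost the call in 9 of the 10 fits, with differences that stayed between -3.10 and -2.79 and between -3.20 and -2.94. None of the 19 changed sign under any alternative.

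Genes of related tethering and fusion steps outside these families were counted in the same way. Of 62 listed, 36 were found, with 51 probe sets of which 22 varied, and 1 was lower, or 1.96% of the 51, and 0 higher (by limma, with 12 and 8 where p under 0.05 was left unadjusted). Of all 24016 probe sets 4.81% passed as lower and 0.974% as higher, and 4332 were lower and 5028 higher unadjusted. The 12 include probe sets that hardly varied, such as 1 of *BNIP1*. The probe set that passed was that of *VPS16*, a core subunit of the HOPS and CORVET tethers of endosomes and lysosomes, at 8.98 ± 0.21 in IVM oocytes and 10.39 ± 0.17 in immature oocytes (SD, n = 5 each; difference -1.41, SE 0.12, adjusted p = 4.59e-05). The HOPS subunits *VPS18* and *VPS41* did not pass, with differences of -0.90 for *VPS18* (adjusted p = 2.49e-04) and of -0.77 and -0.90 for the probe sets of *VPS41*. *RABEP1*, an effector of Rab5 on early endosomes, was at -1.98 (adjusted p = 0.00225), and *SYT11*, a synaptotagmin, was at 1.80 (adjusted p = 5.49e-04). The median difference of the varying probe sets of this list was 0.05, against -0.59 for the SNARE and tether members.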

How the data were processed

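RNA of 5 IVM and 5 immature oocyte pools was hybridised to Affymetrix bovine arrays. Image quantification (GCOS), quantile normalization and FARMS summarisation were done by the authors, and the deposited values are on the log2 scale, 1 per probe set and array. The number of columns not used was 0. Of the probe sets, 112 were controls and 24016 were tested. Gene symbols were those of the platform annotation, brought up to date by gene identifier for 13263. Probe sets that match several genes (86), and the 10638 that are unnamed here, entered the fit without being named in the text. No genome coordinates or sequences were used here.

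The comparison was IVM minus immature with limma 3.58.1 (lmFit and eBayes, R 4.3.3). Benjamini-Hochberg adjustment ran over the 24016, and the threshold of 0.0001 is the study's own false discovery rate. The methods named a SAM test and left out probes called uninformative. Those calls are not used here, and the 9460 probe sets that varied by at least 0.01 were fitted as an alternative. The prior had 0.103 degrees of freedom, and 1.86 among varying probe sets. Tested on simulated data, the fit of 24016 found 13 of 100 probe sets changed by 1 and 40 of 100 changed by 2 on the log2 scale. The fit of 9460 found 16 and 66, and neither made a false call. In each simulation only those 100 and 100 were changed, whereas 1389 passed in the real fit of 24016. The Benjamini-Hochberg limit depends on how many are changed, so recovery in the real data can differ. The members and gene lists were chosen with earlier results of these data known. Every member gene was accounted for, with values for all that passed, for the extremes of each family, for genes with 2 varying probe sets and for the 3 highest means. The comparison of probe sets of 1 gene, by limma on their per-array differences over all 1134 pairs, was added after seeing the data.

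The study's methods state that replicates are days of ovary collection, so same-numbered arrays were taken as paired in a block fit. Their deviations from the group means had r of 0.143, -0.347, 0.0872, 0.672 and 0.359 across probe sets for replicates 1 to 5. Array labels give replicate numbers alone. The best-matching IVM array of an immature array had the same number for replicates 4 and 5. For replicates 1, 2 and 3 it had another number, so that pairing rests on the methods alone. Exact permutation tests were run on the mean of the control transcripts of each array. Alternatives were another threshold, the varying probe sets, the block, 3 ways of scaling, a trended prior, a filter on dim probe sets and arrays left out. Python 3.11.15 with pandas 2.3.3, numpy 2.4.6 and matplotlib 3.10.9 wrote the tables and drew the figures.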

Additional observations from a re-analysis of the deposited data

Results flagged for a closer look

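In 3 of 112 groups of 5 arrays examined, 1 array stood far from the other 4, and chance gives about 1 in 20. *COG4* in immature replicate 2 was at 9.32, with the other immature pools at 8.72 to 8.89. *SEC22A* in immature replicate 2 was at 8.90, with the others at 8.59 to 8.67. *GOLGA4* in immature replicate 3 was at 8.34, with the others at 8.62 to 8.71.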

How the results depend on the processing

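The counts of 17 lower and 2 higher members became 21 and 2 with varying probe sets alone, 31 and 12 at an adjusted p under 0.05, 19 and 2 after a second quantile normalization, 18 and 2 after centring on array medians, 17 and 2 with a trended robust prior and 19 and 2 among probe sets above the median level. Of all 24016, quantile normalization gave 1270 and 396, median centring 1340 and 382, and the trended prior 1187 and 243. Of the 12008 above the median level 1373 were lower and 393 higher. The replicate block gave 0 and 0, and with varying probe sets alone 13 and 1, which lost *COG4*, *STX5*, *VTI1B*, *GOSR2* and *TRAPPC6B*. Centring on the poly-A controls gave 72 and 0, among them probe sets that hardly vary. Without immature replicates 1, 2 and 3 the counts were 0 and 0, and with varying probe sets alone, added after seeing the data, 5 and 1. Without IVM replicate 4 and with varying probe sets alone, also added, they were 22 and 4. Leaving out 1 array gave 8 to 15 and 1 to 2, beside 703 to 1097 lower and 77 to 318 higher of all 24016. Poly-A centring turned the sign of *COG3* (-0.36), *STX12* (-0.84), *STX4* (-0.90), *STX7* (-0.42), *BET1L* (-0.15), *GOSR2* (-0.02), *VAMP3* (-0.03), *VAMP7* (-0.35), *TRAPPC2* (-0.49), *TRAPPC3* (-0.19), *EXOC1* (-0.51 and -0.77), *EXOC5* (-0.41), *EXOC6* (-0.78), *GOLGA2* (-0.63) and *USO1* (-0.45), each of them above the shift of -0.936 of the median probe set. *COG6* turned to 0.62 without immature replicates 1, 2 and 3, to 0.12 and 0.07 without replicates 2 and 3 alone and to 0.0053 without IVM replicate 4 (from -0.35 to 0.12 over the arrays left out), *STX4* to -0.07 without immature replicates 1, 2 and 3, *EXOC1* to -0.10 without IVM replicate 4 (up to 0.34 with another array left out), and *NAPA* to 0.08 and 0.0080 under quantile and median scaling. Apart from the alternatives that change counts by construction (fewer probe sets, arrays or another threshold), the cause was not tested. Spots' signal over background is not used here, so which members lie near background is unknown.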
